A study of Lachancea kluyveri with 16 samples.

Results

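In the yeast Lachancea kluyveri, 45 of the 5316 genes on a custom expression array rose by a moderate amount when glycerol replaced glucose, averaged over a wild-type and a SEF1 deletion strain. They were chosen by their log2 change from YPD to YPGly: the mean of the changes in both strains had to lie between 2.6 and 4.0, which is 6.06-fold to 16-fold. The probe also had to reach a processed signal of 200 on all 4 arrays of at least 1 group, as 4255 genes did. That range held 53 genes, and 8 were left out by name or by position (locus numbers near a chromosome end, the left arm of chromosome C and GUT1). The change with the medium is therefore what chose these genes, and it is described below without a test. The difference between strains within a medium, and the difference between the strains' changes, were not used to choose them and were tested.

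The wild type (WT, strain JYL1897) was compared with sef1Δ (strain SkSef1KA1), in which a KanMX6 cassette replaced SEF1, the gene of a zinc cluster transcription factor. Both strains were MATa ura3, and sef1Δ was a single deletion strain made from JYL1897. YPD is a rich medium with glucose, and YPGly is the same medium with glycerol, which yeast can use only by respiring. Overnight YPD cultures (28 °C) were brought to 0.2 OD600 per ml of fresh YPD or YPGly and harvested after 5.5 h at 30 °C, so growth on glycerol and the change from glucose cannot be told apart. Each strain and medium had 4 arrays, labelled as biological repeats, for 16 arrays in all.

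Yeast cells given glucose ferment it and keep many genes for other carbon sources at a low level, a state known as glucose repression. When glucose is gone, activators such as Adr1 act on genes for respiration, acetate, fatty acids and storage carbohydrate. Fatty acids are broken down in the peroxisome in yeast, and its products reach the mitochondria through carnitine and the glyoxylate enzymes. These roles, and those given for each gene below, are known from Saccharomyces cerevisiae.

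Levels are given as log2 of the processed signal relative to the 75th percentile of the same array, which is 0 on this scale. They compare arrays for 1 probe and not 1 gene with another. In WT the change from YPD to YPGly ran from 1.43 to 5.80 (log2) over the 45 genes with a median of 3.12, or 8.69-fold. In sef1Δ it ran from 1.73 to 4.79 with a median of 3.15, or 8.86-fold. Over the 4255 genes tested the medians were -0.14 in WT and -0.11 in sef1Δ. In WT, 44 of the 45 genes had all 4 YPGly arrays above all 4 YPD arrays, beside 18.5% of all genes tested, and HSP26 was the exception. In sef1Δ this held for 43 genes, beside 18.4% of all genes, with HSP26 and GSM1 as the exceptions. The rule used these values, so the counts describe the choice.

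**Figure D1:**
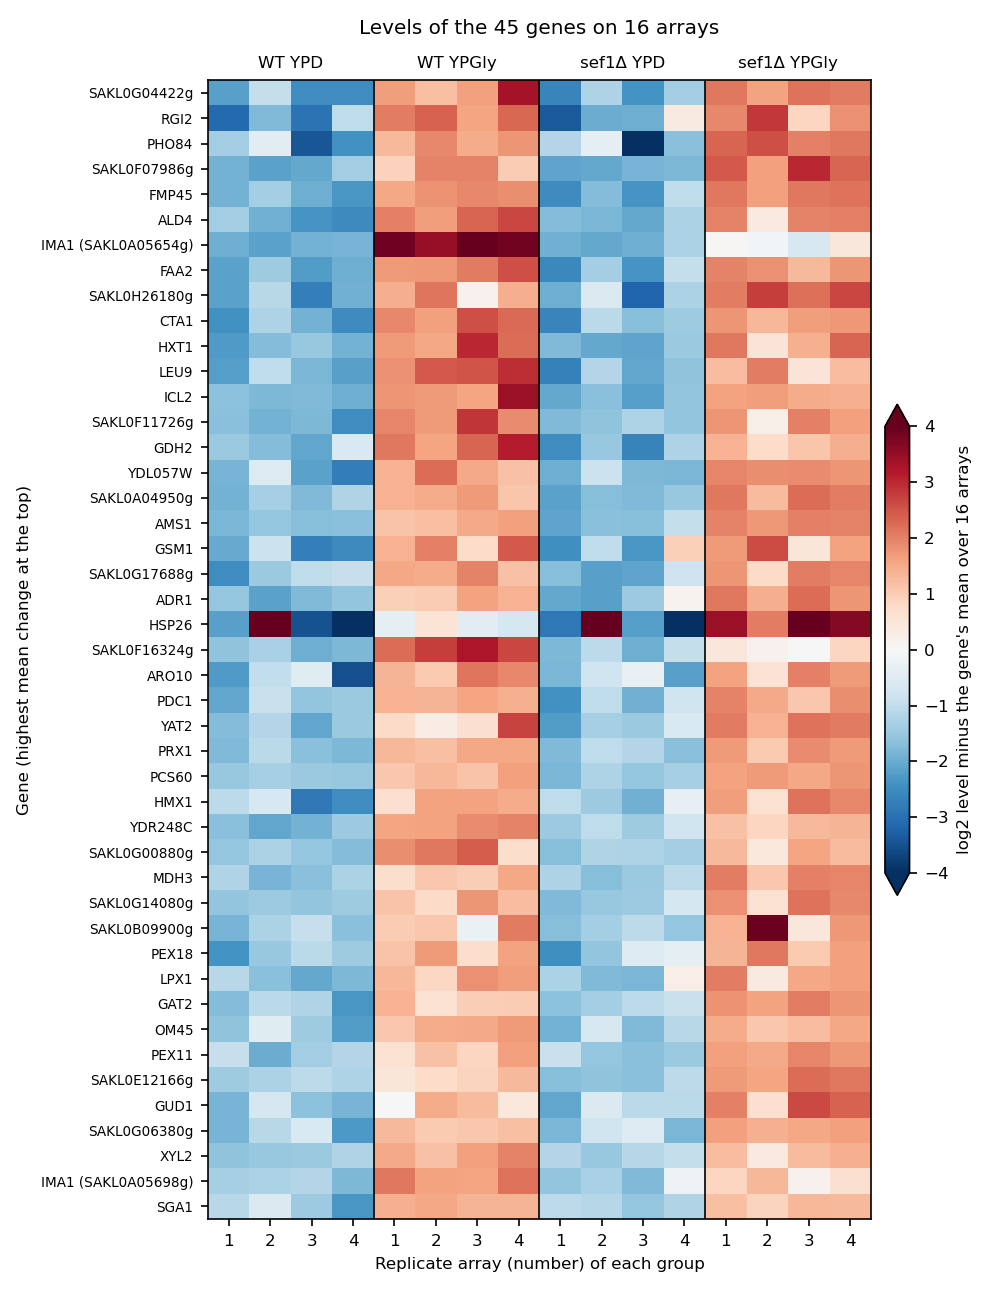
Levels of the 45 genes (rows, highest mean change at the top) on the 16 arrays (columns, by strain, medium and replicate number), as log2 level minus the gene's mean over all arrays. YPGly columns are red for nearly every gene, the IMA1 gene SAKL0A05654g is pale in sef1Δ YPGly, and HSP26 is high on replicate 2 in YPD in both strains.

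At the lower bound, the genes just inside were SGA1 (mean change 2.601), the IMA1 gene SAKL0A05698g (2.61) and XYL2 (2.66). Just outside were YPL113C (2.59), SAKL0H00330g (2.55) and GUT2 (2.54). At the upper bound, SAKL0G04422g (3.95), RGI2 (3.93) and PHO84 (3.88) were inside, and SAKL0F09790g (4.02), a JEN1 gene (SAKL0G14938g, 4.04) and an IMA5 gene (SAKL0A00154g, 4.06) were outside. The changes ran on without a gap at either bound, and 58 of the genes tested lay above the range.

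Of the 45 genes, 33 have a symbol from the baker's yeast ortholog and 12 have none. In the YPD groups 23 of the genes had passed the signal of 200 in at least 1 strain, and the other 22 had passed only in YPGly. The signals of 6 genes (HSP26, HXT1, GAT2, SGA1, HMX1 and SAKL0B09900g) were not well above background on WT YPD replicate 4, and every other array was well above background for all 45. Each gene had a second probe, and its mean change differed from that of the chosen probe by at most 0.5 for 44 genes. The exception was the IMA1 gene SAKL0A05654g, where the second probe gave a change that was 0.96 larger. By that probe its mean change (6.85 in WT and 2.61 in sef1Δ) lies above the upper bound of 4.0. Genes near a bound could also cross it, and XYL2, for example, fell below the lower bound by its second probe. With the second probes the change was at least 1.44 in WT and 1.82 in sef1Δ.

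SEF1 checked the strain labels. In WT its level was -1.67, -2.08, -1.42 and -2.57 in YPD (replicates 1 to 4) and -1.57, -1.59, -1.41 and -1.69 in YPGly. In sef1Δ it was -8.61, -8.09, -9.56 and -9.17 in YPD, not well above background on any array, and -9.18, -8.14, -5.90 and -9.38 in YPGly, where replicate 3 alone was above background. The strains did not overlap in either medium (exact two-sided permutation test, p = 0.0286, the smallest that 4 against 4 arrays can give). In YPD the WT level was at least 28.9-fold higher, set against the dimmest probe well above background on each array.

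Regulators are encoded by 3 of the members. ADR1, the activator of peroxisomal and alcohol genes after glucose is used up, rose by 3.00 in WT and 3.28 in sef1Δ. In WT it stood at -2.46, -3.06, -2.68 and -2.52 in YPD and at 0.04, 0.09, 0.69 and 0.47 in YPGly. In sef1Δ it stood at -2.98, -3.11, -2.37 and -0.78 in YPD and at 1.19, 0.54, 1.30 and 0.85 in YPGly. The medium groups were apart in both strains, and sef1Δ YPD replicate 4 was the highest of the 8 glucose arrays. GSM1, a zinc cluster protein with a proposed role in energy metabolism, changed by 3.68 and 2.81, and sef1Δ YPD replicate 4 (0.28) reached into the sef1Δ YPGly range of -0.19 to 1.92. GAT2, a GATA-type zinc finger protein, changed by 2.58 in WT and 3.03 in sef1Δ.

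Another 7 members act in the peroxisome or in fatty acid use. Their changes lay between 2.44 and 4.11 in WT, and between 2.55 and 3.53 in sef1Δ. CTA1, the peroxisomal catalase, had the largest change of the 7 in WT (4.11, against 3.35 in sef1Δ): WT arrays read -1.31, -0.12, -0.80 and -1.41 in YPD and 3.03, 2.73, 3.69 and 3.36 in YPGly. FAA2, an acyl-CoA synthetase that activates fatty acids, changed by 3.97 and 3.53. PEX11, which promotes division of peroxisomes, changed by 2.44 in WT and 3.11 in sef1Δ. For PEX11 the WT arrays lay between -0.53 and 0.54 in YPD and between 2.08 and 3.10 in YPGly. PEX18, a co-receptor for import of peroxisomal proteins, changed by 2.89 and 2.77 (its annotation describes only weak similarity to PEX21). LPX1, a peroxisomal lipase, changed by 3.07 and 2.55. PCS60, a peroxisomal synthetase that joins acids such as oxalate to CoA, had a tight spread: in WT it read -0.35, -0.14, -0.31 and -0.35 in YPD and 2.26, 2.52, 2.34 and 2.81 in YPGly. MDH3, the peroxisomal malate dehydrogenase that restores NAD for fatty acid oxidation, changed by 2.58 and 3.15.

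ALD4 and PDC1 belong to acetate and pyruvate metabolism. ALD4, the mitochondrial aldehyde dehydrogenase that makes acetate, stood in WT at 1.66, 1.15, 0.69 and 0.53 in YPD and at 5.08, 4.74, 5.40 and 5.74 in YPGly. In sef1Δ YPGly it stood at 5.06, 3.46, 5.03 and 5.08, so replicate 2 was below the others. The gene listed as PDC1 (SAKL0F04334g), a relative of pyruvate decarboxylase, changed by 2.95 in WT and 3.15 in sef1Δ. YAT2, a carnitine acetyltransferase that moves acetyl units, changed by 2.72 and 3.35. ICL2, the mitochondrial 2-methylisocitrate lyase of propionate breakdown, changed by 3.91 and 3.42. In WT YPGly both genes were highest on replicate 4, with ICL2 at 2.97 against 1.11 to 1.29 and YAT2 at 1.61 against -0.81 to -0.32 on the other arrays.

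Nitrogen compounds are handled by 4 of the members. GDH2, the NAD-dependent glutamate dehydrogenase that releases ammonium from glutamate, changed by 3.77 in WT and 3.14 in sef1Δ. Its WT arrays read 0.37, 0.11, -0.24 and 1.23 in YPD and 3.96, 3.42, 4.16 and 4.99 in YPGly. ARO10, a decarboxylase of the Ehrlich pathway of amino acid breakdown, changed by 3.42 and 2.75, with YPD arrays that spread from -2.79 to 0.24 in WT. The gene listed as LEU9, an isopropylmalate synthase of leucine synthesis, changed by 4.24 and 3.15. GUD1, the guanine deaminase, changed by 2.31 in WT and 3.13 in sef1Δ.

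Carbohydrates are the substrate of 6 members. AMS1, the vacuolar alpha-mannosidase, changed by 3.06 in WT and 3.54 in sef1Δ. SGA1, a glucoamylase that degrades glycogen, changed by 2.79 and 2.41. XYL2, a xylitol dehydrogenase (its annotation also names the sorbitol dehydrogenase SOR1), changed by 3.03 and 2.28. HXT1, listed as a hexose transporter, changed by 3.97 and 3.44. Both IMA1 genes, named for an isomaltase that splits alpha-glucosides, had the lowest changes of this set in sef1Δ and are taken up with the strain comparison. The probes of SAKL0A05654g share sequence with SAKL0A05698g by the array's own probe names, so their signals cannot be fully separated.

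Of the genes linked to stress or to the mitochondria, RGI2, induced in respiratory growth, changed by 4.27 in WT and 3.58 in sef1Δ. It stood in sef1Δ at 0.36, 1.73, 1.76 and 4.08 in YPD and at 5.62, 6.53, 4.56 and 5.54 in YPGly, with YPD replicate 4 again the highest of its group. FMP45, a membrane protein found at eisosomes and in mitochondria, changed by 3.67 and 3.91. OM45, a protein of the mitochondrial outer membrane, changed by 2.88 and 2.68. PRX1, the mitochondrial peroxiredoxin, changed by 2.97 and 2.98. PRX1 is the neighbour of SEF1 on the array's gene order, and its sef1Δ YPGly arrays read 2.59, 1.94, 2.78 and 2.59 against 2.21, 2.09, 2.45 and 2.44 in WT, so the strains overlapped.

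PHO84, the high-affinity phosphate transporter, changed by 3.53 in WT and 4.22 in sef1Δ. Its level in YPD was 1.48, 2.45, -0.54 and 0.43 in WT and 1.68, 2.49, -1.78 and 1.21 in sef1Δ. Replicate 2 was the highest and replicate 3 the lowest in both strains, while its YPGly arrays lay between 4.15 and 5.43. HMX1, the heme oxygenase that frees iron from heme, changed by 3.12 and 2.77. YDL057W, of unknown function, changed by 3.41 and 3.48.

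Among the 12 genes without a symbol the change lay between 2.10 and 4.39 in WT, and between 1.82 and 4.30 in sef1Δ. SAKL0G04422g had the highest mean change of all 45 (3.99 and 3.91), and its WT YPGly arrays read 1.91, 1.44, 1.87 and 3.57. SAKL0F07986g changed by 3.35 in WT and 4.30 in sef1Δ, SAKL0H26180g by 3.29 and 4.17, and SAKL0F11726g by 4.05 and 2.96. SAKL0G06380g changed by 2.62 and 2.82. In sef1Δ YPGly, SAKL0B09900g read -1.51, 1.01, -2.47 and -1.17, with replicate 2 above the other 3 arrays.

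**Figure D2:**
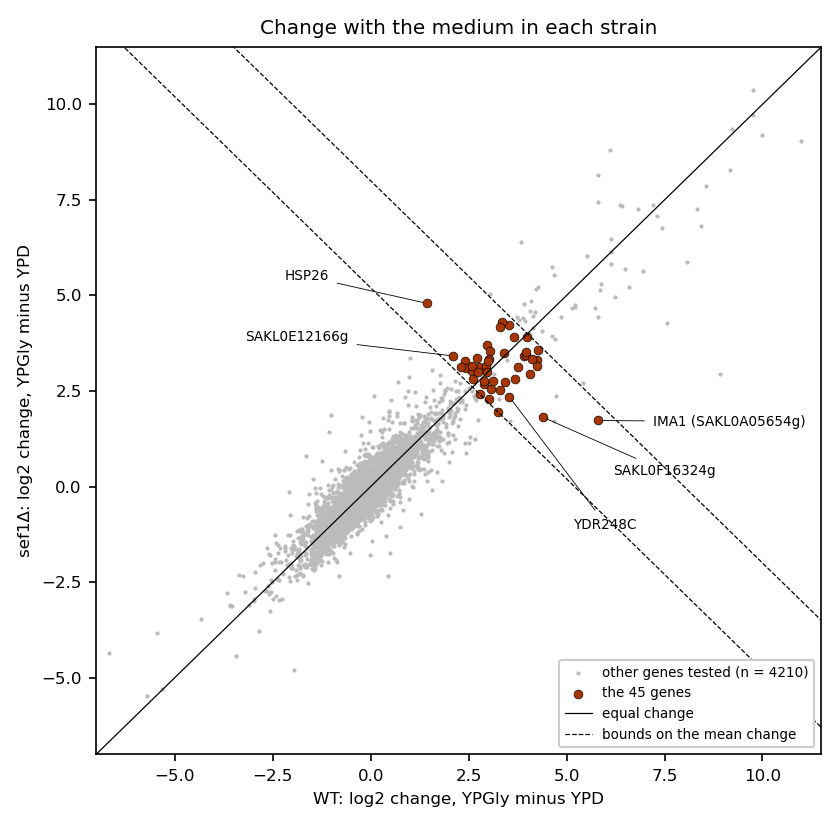
Log2 change from YPD to YPGly in WT (horizontal) and in sef1Δ (vertical) for each gene tested, with the 45 genes in brown, equal change as a solid line and the bounds of the rule as dashed lines. The IMA1 gene SAKL0A05654g (5.80 and 1.73) and SAKL0F16324g (4.39 and 1.82) lie far below the line of equal change, and HSP26 (1.43 and 4.79) lies far above it.

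The first strain comparison asked whether loss of SEF1 changed these genes on glucose. No member was called in YPD (limma, adjusted p at most 0.05 and at least 1.5-fold), where 0.0705% of all genes tested were called, and 1 member had an unadjusted p under 0.05, beside 113 of all 4255 genes. The methods' t-test, uncorrected, called 1 member, the gluconokinase-like gene YDR248C (its share over all genes is not given here). Changes (sef1Δ minus WT) ran from -0.50 for GDH2 to 0.82 for GSM1, with a median of 0.16 beside 0.01 over all genes. For 39 of the 45 genes the change was smaller than 0.5, and the strains' arrays overlapped for all 45, where 1.9% of all genes tested did not overlap. Replicate 4 of sef1Δ was the highest of its 4 arrays for 27 members (60%), beside 26.3% of all genes tested, and for 3 it was the lowest. Its part in the median of 0.16 was not tested.

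On glycerol, 3 of the 45 members differed between strains: HSP26 was higher in sef1Δ, and SAKL0A05654g (IMA1) and SAKL0F16324g were lower. Of all genes tested, 1.22% were called, with 0.729% higher and 0.494% lower. The other 42 members changed by -1.18 to 1.12 and did not pass the test. The median over the members was 0.17 and that over all genes 0.03, and 25 members were above 0 and 20 below. The arrays of the strains did not overlap for 12 members, 6 with sef1Δ above WT and 6 below, beside 9.52% of all genes tested. AMS1, PHO84 and SAKL0G06380g were among those above, at 0.56, 0.63 and 0.42, and SGA1 among those below, at -0.24. None of these 4 passed the test. Their second probes gave smaller differences, at 0.07, 0.49 and 0.20 for those above and -0.12 for SGA1.

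SAKL0A05654g, an isomaltase gene, showed the largest strain difference of the 45. In YPD it read -1.97, -2.14, -1.91 and -1.88 in WT and -1.94, -2.05, -1.97 and -1.28 in sef1Δ. In YPGly it read 3.89, 3.47, 4.08 and 3.85 in WT but 0.03, -0.13, -0.66 and 0.43 in sef1Δ. All 4 sef1Δ arrays lay far below the 4 WT arrays, and the fitted difference was -3.91 ± 0.24 (SE), or 15-fold lower in sef1Δ (limma, adjusted p = 9.69e-05). Its second probe gave -4.22 (limma, adjusted p = 0.000344). The other IMA1 gene, SAKL0A05698g, lies beside it with only MAL11 between them. Its YPGly arrays read 0.28, -0.21, -0.24 and 0.34 in WT and -0.97, -0.49, -1.64 and -1.17 in sef1Δ, without overlap, and the difference of -1.11 ± 0.26 missed the threshold (limma, adjusted p = 0.0832). With its second probe the difference was -1.39 and passed (limma, adjusted p = 0.0255). MAL11, listed for an alpha-glucoside transporter, lay above the range, with a fitted change from YPD to YPGly of 8.92 ± 0.36 in WT and 2.94 ± 0.78 in sef1Δ. In YPD its signal was well above background on only 1 of 4 WT arrays and 3 of 4 sef1Δ arrays. Its difference between strains in YPGly was -5.91 ± 0.81 (limma, adjusted p = 0.00686).

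SAKL0F16324g, whose product is annotated only as similar to a hypothetical protein, read -2.68, -2.35, -3.00 and -2.85 in WT and -2.87, -2.12, -3.02 and -2.01 in sef1Δ on glucose. On glycerol it read 1.16, 1.71, 2.17 and 1.62 in WT and -0.59, -0.89, -1.05 and -0.21 in sef1Δ. The strains overlapped on glucose and were apart on glycerol, by -2.35 ± 0.25 (limma, adjusted p = 0.00156), or 5.1-fold lower in sef1Δ. The second probe gave -2.39 (limma, adjusted p = 0.00161).

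HSP26, a small heat shock protein that holds unfolded proteins, was the member that was higher in sef1Δ. In YPGly it read -1.27, -0.39, -1.34 and -1.61 in WT and 2.52, 1.12, 3.34 and 2.74 in sef1Δ, without overlap. The difference was 3.58 ± 0.44, or 12-fold (limma, adjusted p = 0.00446). In YPD, in contrast, it read -3.09, 3.28, -4.41 and -6.11 in WT and -3.78, 3.25, -3.11 and -5.82 in sef1Δ. Replicate 2 stood more than 6 log2 units above the nearest other array in both strains, so the change with the medium had the largest error of all 45 genes. Without replicate 2 of both YPD groups, the change from YPD to YPGly was 3.39 in WT and 6.67 in sef1Δ. The mean of these changes lies above the upper bound of the rule. HSP26 was therefore within the range only with replicate 2 of the YPD groups included. In a single fit of all 16 arrays, which shares the spread over both media, the glycerol difference of HSP26 was the same but did not pass (limma, adjusted p = 0.348).

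**Figure D3:**
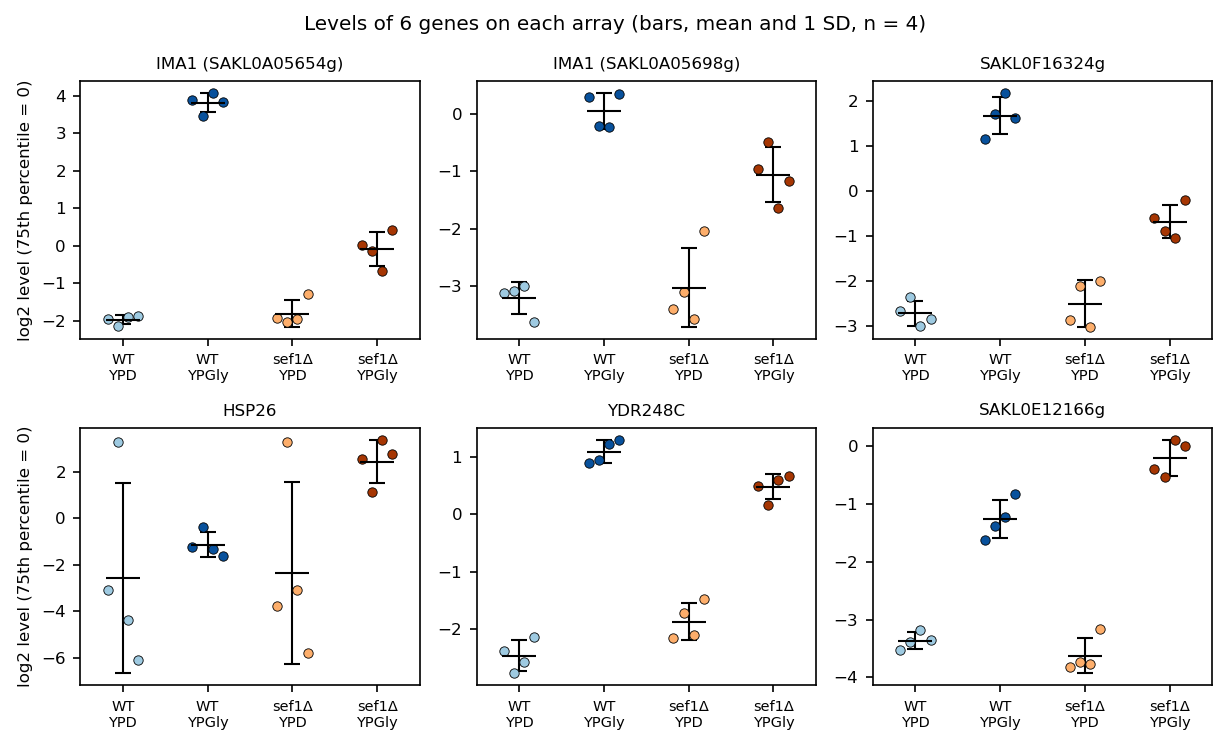
Log2 level of 6 genes on each array (points, in replicate order from left to right) with the mean and 1 SD of the 4 arrays (bars), by strain and medium. The isomaltase genes, SAKL0F16324g and YDR248C are lower in sef1Δ in YPGly and SAKL0E12166g and HSP26 higher, while in YPD the strains overlap for all 6, and HSP26 spreads from about -6 to above 3.

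Deviations of arrays with the same replicate number correlated by 0.208 to 0.712 between WT and sef1Δ of one medium. Between the media of one strain they correlated by 0.000615 to 0.401. The labels name repeats and not pairs, and the pairs of strains were also fitted as blocks. In that fit 10 members were called in YPGly, 4 higher and 6 lower, beside 5.24% of all genes (3.15% higher and 2.09% lower). The further calls were GAT2 (0.81, adjusted p = 0.0243), SAKL0E12166g (1.06, adjusted p = 0.00714) and SAKL0H26180g (1.11, adjusted p = 0.0337) higher, and LEU9 (-1.18, adjusted p = 0.041), GDH2 (-1.13, adjusted p = 0.0117), SAKL0A05698g (-1.11, adjusted p = 0.0222) and YDR248C (-0.61, adjusted p = 0.0394) lower in sef1Δ. For GDH2 the sef1Δ arrays on glycerol read 3.23, 2.57, 2.95 and 3.28, each below the lowest WT array (3.42). For GAT2 they read -1.64, -1.82, -1.37 and -1.65, each above the highest WT array (-2.04). Leaving out sef1Δ YPGly replicate 2 raised the count without blocks to 7 members, 3 higher and 4 lower. That array was the lowest of its 4 for 30 members (66.7%), beside 45.7% of all genes tested. Leaving out WT YPGly replicate 4, on which ICL2 and YAT2 were high, gave 5 members, and YAT2 was then higher in sef1Δ (1.37, limma, adjusted p = 0.0275). The shares of all genes called without these arrays are not given here.

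**Figure D4:**
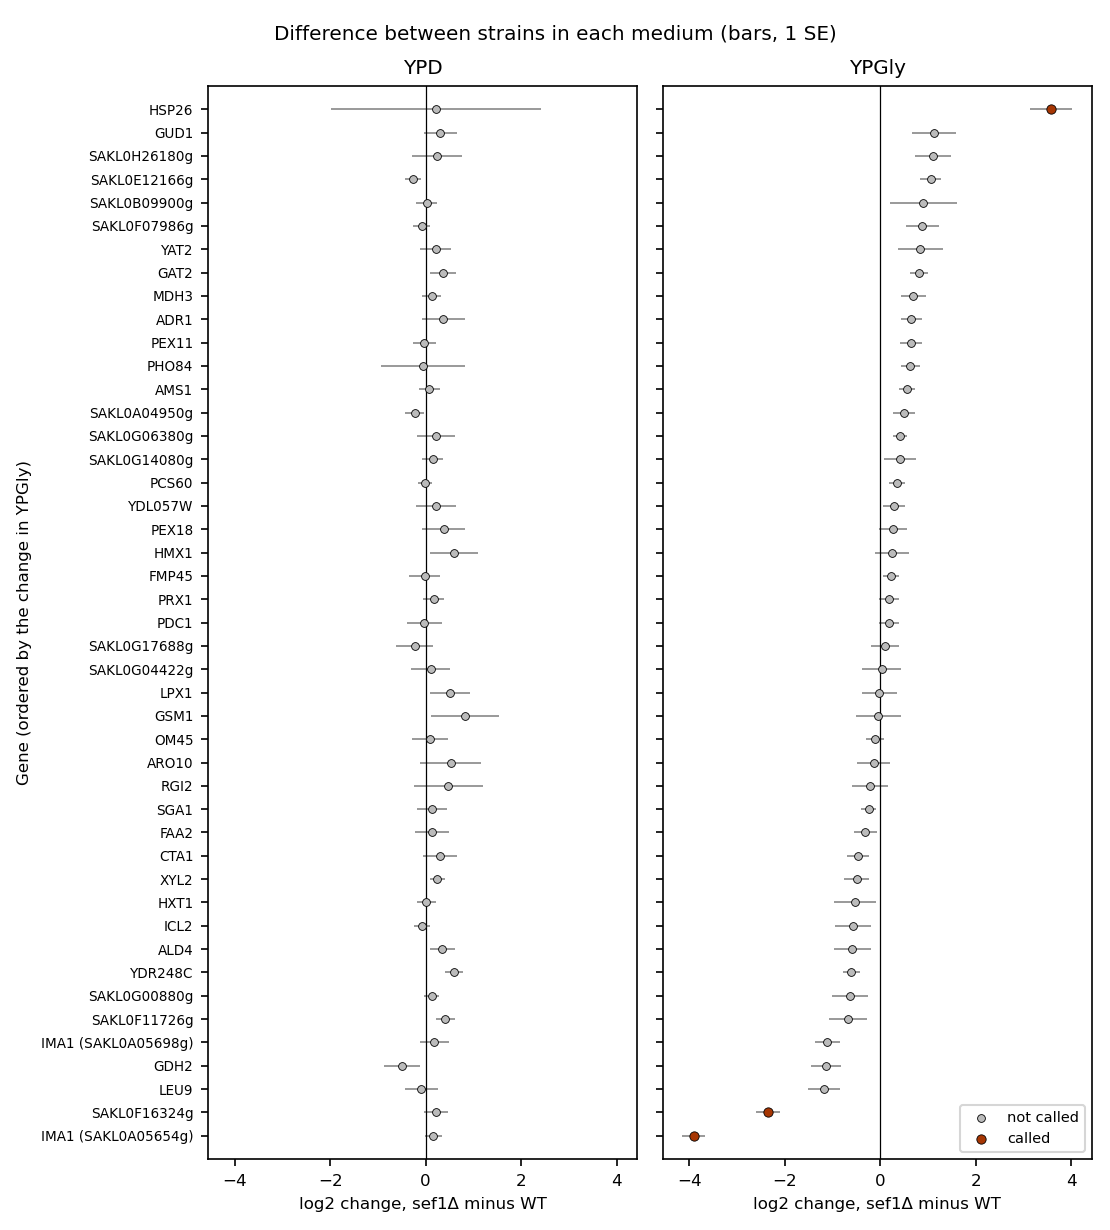
Difference between strains (sef1Δ minus WT, log2) for each of the 45 genes in YPD (left) and YPGly (right), with bars of 1 SE and the called genes in brown. In YPD every gene lies between -0.50 and 0.82 and none is called; in YPGly HSP26, SAKL0F16324g and the IMA1 gene SAKL0A05654g stand apart from the rest.

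The regulators, peroxisomal and acetate genes were not among the 3 calls of the main fit. ADR1 differed by 0.65 ± 0.22 in YPGly (adjusted p = 0.24), CTA1 by -0.47 ± 0.22 (adjusted p = 0.438), MDH3 by 0.69 ± 0.26 (adjusted p = 0.303), ALD4 by -0.58 ± 0.38 (adjusted p = 0.59) and PHO84 by 0.63 ± 0.20 (adjusted p = 0.184). Under array weights (limma) GAT2 (adjusted p = 0.0119), ADR1 (0.0275), MDH3 (0.00242), PEX11 (0.00841) and PHO84 (0.0111) were called higher in sef1Δ, and CTA1 and ALD4 were not called. The methods' uncorrected t-test called the same genes apart from MDH3. Of the 7 peroxisomal genes 4 were above 0 and 3 below, between -0.47 and 0.69. Of the 6 carbohydrate genes 5 were below 0, beside 45.5% of all genes tested, with AMS1 (0.56) above. The 5 include both IMA1 genes, whose signals cannot be fully separated. By its second probe AMS1 differed by 0.07 (limma, adjusted p = 0.94). A p that misses the threshold leaves these differences unsettled, since changes of this size had standard errors of 0.2 to 0.4.

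The strains' changes from YPD to YPGly were then compared directly. They differed for 4 of the 45 members, beside 0.658% of all genes tested (0.4% higher and 0.259% lower). The change was smaller in sef1Δ for SAKL0A05654g (by 4.07 ± 0.31, adjusted p = 2.21e-06), SAKL0F16324g (by 2.57 ± 0.38, adjusted p = 0.00329) and YDR248C (by 1.20 ± 0.26, adjusted p = 0.0488), and larger for SAKL0E12166g (by 1.32 ± 0.28, adjusted p = 0.0419). YDR248C read -2.37, -2.76, -2.57 and -2.13 in WT YPD and -2.15, -1.72, -2.10 and -1.47 in sef1Δ YPD. In YPGly it read 0.90, 0.94, 1.22 and 1.29 in WT and 0.49, 0.17, 0.59 and 0.66 in sef1Δ. On glucose sef1Δ was higher by 0.60 ± 0.20 (limma, adjusted p = 0.999), with replicate 1 alone inside the WT range. On glycerol it lay below that range, by -0.61 ± 0.17 (limma, adjusted p = 0.142), so both media entered the difference of the changes.

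SAKL0E12166g read -3.53, -3.39, -3.18 and -3.36 in WT YPD and -3.82, -3.74, -3.77 and -3.17 in sef1Δ YPD. In YPGly it read -1.62, -1.38, -1.23 and -0.83 in WT and -0.40, -0.54, 0.11 and 0.00 in sef1Δ, without overlap. Its neighbour SPL2, known as an inhibitor of phosphate transport, lay above the range, with changes of 5.80 ± 0.51 in WT, where 3 of 4 YPD arrays were well above background, and 7.45 ± 0.53 in sef1Δ. The calls of YDR248C and SAKL0E12166g held in 9 and 11 of 31 alternatives, and the other 2 calls in all 31. HSP26, whose change was 3.36 larger in sef1Δ, had an SE of 2.49 (adjusted p = 0.74), and 3.28 ± 1.01 (adjusted p = 0.276) without replicate 2 of both YPD groups. With the pairs of each medium as blocks, a fit added after seeing the data, 5 members were called, HSP26 among them (adjusted p = 0.0168), 2 higher and 3 lower, beside 2.54% of all genes (1.67% higher and 0.87% lower). For the other members the difference ran from -1.29 for SAKL0A05698g to 0.95 for SAKL0F07986g.

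The replicate arrays of these genes spread more than those of most genes. The median SD of 4 arrays was 0.42 over the members and 0.23 over all genes tested in WT YPD, and 0.59 and 0.26 in sef1Δ YPD. In YPGly it was 0.41 and 0.30 in WT and 0.40 and 0.30 in sef1Δ. An SD over 1 was found for PHO84, HSP26, HMX1 and ARO10 in WT YPD, and for PHO84, HSP26, GSM1, RGI2, ADR1 and SAKL0H26180g in sef1Δ YPD. In YPGly it was found for YAT2 in WT and for SAKL0B09900g in sef1Δ. Of all genes tested, 0.987% had an SD over 1 in WT YPD and 1.27% in sef1Δ YPD. In YPGly these shares were 1.34% in WT and 1.76% in sef1Δ. Replicate 2 was the highest WT YPD array for 22 members (48.9%), beside 26.3% of all genes tested. Replicate 1 was the lowest sef1Δ YPD array for 25 members (55.6%), beside 26.6% of all genes tested.

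**Figure D5:**
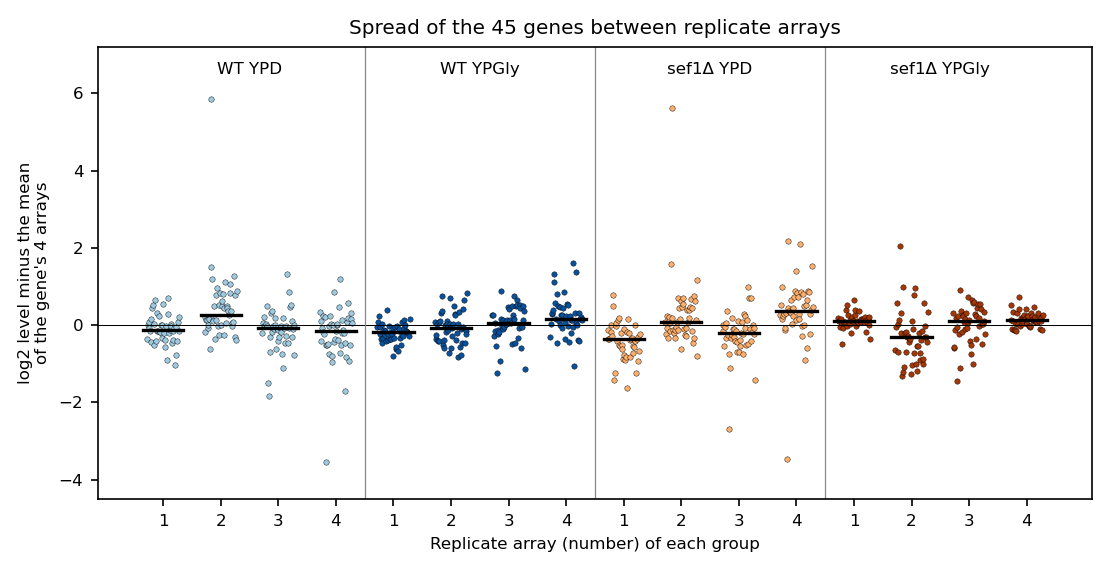
Deviation of each of the 45 genes (points) from the mean of its 4 arrays, with the median over the genes (bars), for every array by group and replicate number. The medians run from -0.37 on sef1Δ YPD replicate 1 to 0.37 on sef1Δ YPD replicate 4, and the points near 6 on both replicate 2 arrays in YPD are HSP26.

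Chromosomes E and F held 10 members each, or 22.2% of the members, and each held at most 12.6% of all genes tested. There were 6 on G, 6 on H, 5 on D, 4 on A and 3 on B, and 1 on C (2.22% beside 11.7%), whose left arm the rule left out. No member had another member as its immediate neighbour on the array's gene order. The isomaltase genes lay 2 places apart, and GAT2 and MDH3 lay 3 places apart. Of 65 neighbours that were tested, 4 (6.15%) had a mean change of at least 2.6, beside 2.61% of all genes tested, and MAL11 accounts for 2 of the 4 as the neighbour of both isomaltase genes. The median change of the neighbours was 0.08 and that of all genes -0.13.

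Other genes of the same pathways moved to different degrees. These genes were tested from YPD to YPGly in each strain, where 41.9% of all genes tested were called in WT (17.5% rose and 24.3% fell) and 40.5% in sef1Δ (18.1% rose and 22.4% fell). Members are not in these counts, while genes of the range that the rule left out by name or position are. Of 21 other genes of fatty acid oxidation and the peroxisome, 13 rose and 3 fell in WT (11 and 2 in sef1Δ). Above the members' range lay POX1, the acyl-CoA oxidase, at 5.86 ± 0.27 in WT, FOX2, the multifunctional enzyme, at 6.96 ± 0.38, and POT1, the thiolase, at 8.43 ± 0.47, with FOX2 and POT1 well above background on 3 of 4 WT YPD arrays. In sef1Δ they rose by 5.15 ± 0.38, 5.64 ± 0.48 and 6.81 ± 0.69. Other genes of the list lay lower, such as TES1, a thioesterase, at 1.72 in WT.

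In the carnitine and propionate list 6 of 8 other genes rose and 1 fell in each strain. CRC1, the carnitine carrier, rose by 4.70 ± 0.45 in WT and 3.85 ± 0.37 in sef1Δ. PDH1, of the methylcitrate cycle, rose by a fitted 9.75 ± 0.35 and 9.71 ± 0.55. PDH1 was well above background on only 1 of 4 YPD arrays in WT and 2 of 4 in sef1Δ. Of 12 other genes of the glyoxylate cycle and gluconeogenesis 8 rose and 2 fell in WT (median 1.21). In sef1Δ 10 of them rose and 1 fell (median 1.44). Of 16 genes of the TCA cycle 10 rose and 0 fell in WT, and 11 rose and 1 fell in sef1Δ (medians 0.83 and 0.98). Of 34 respiratory chain genes 19 rose and 2 fell in WT, and 16 rose and 1 fell in sef1Δ, with medians of 0.90 and 0.77. None of these genes was a member. Among 31 other genes of stress and reserve carbohydrate 19 and 20 rose, and 2 fell in each strain (medians 1.24 and 1.21). In the acetate, ethanol and lactate list 7 of 20 rose in each strain while 8 and 10 fell, with medians of -0.01 and -0.48, which spike-in scaling turned to 0.66 in WT and left below 0 in sef1Δ. Of 30 other genes of nitrogen use 9 and 10 rose and 7 fell in each strain, and of 26 other genes of sugar uptake and glycolysis 9 rose in each strain and 14 and 11 fell (medians -0.94 and -0.65). Of 7 glycerol genes 4 rose and 2 fell in WT, of 21 mitochondrial carriers 5 rose and 6 fell, of 17 other carbon regulators 4 rose and 4 fell, and of 23 other iron and copper genes 4 rose and 5 fell. In sef1Δ these counts were 3 and 2, 7 and 3, 5 and 2, and 5 and 5. The list of sugar alcohol genes held XYL2 alone.

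With the spike-in probes in place of the 75th percentile as the scale, the median change of all genes was 0.53 in WT rather than -0.14, and 0.18 in sef1Δ rather than -0.11. The list medians moved with it, for example to 1.57 in WT and 1.07 in sef1Δ for the respiratory chain and -0.27 and -0.35 for sugar uptake and glycolysis. In YPD the same scaling put the median strain difference at 0.38 over all genes and 0.54 over the members, of which 44 were then above 0, and in YPGly it left both medians within 0.01 of their values.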

How the data were processed

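RNA of WT and sef1Δ cells in YPD or YPGly was measured on 16 one-colour arrays, 4 in each of 4 groups, grouped by the sample titles. Per the file headers, the authors read the arrays with Agilent Feature Extraction 10.5.1.1, and the deposited processed signal is an intensity after background subtraction. The deposited series values are log2, scaled by the authors to the 75th percentile of each array, and they differed from the values used here by a constant. The scanner's flags were deposited as codes and used as given. Each processed signal was divided by the array's 75th percentile over 10620 gene probes (718 to 2410) and put on a log2 scale. From 90.5% to 98.7% of probes were well above background. The 32 non-uniform outlier spots were left out, and the probe with the higher mean stood for its gene.

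Comparisons used limma 3.58.1 in R 4.3.3 with Benjamini-Hochberg adjustment over 4255 genes, and only the arrays of the groups compared. A gene was called at an adjusted p of at most 0.05 and 1.5-fold. P-values measure the spread between cultures of 1 deletion strain. The 45 members, their role groups and the 14 pathway lists were chosen with earlier results of these data known. Named were members called, those on a list, those at either end of the change or of the strain difference, and genes at the bounds. The main fits used no pairing. Only the fits with replicate blocks took replicate numbers to pair the strains within a medium (correlations of deviations 0.366 to 0.712 in YPD and 0.208 to 0.701 in YPGly). The 2 slides each held 2 arrays of every group. Symbols come from the study's ortholog table, of which part was held. In simulated data the fits recovered 64% of log2 changes of 1 in YPD, 66% in YPGly and 37% for the difference of the changes. The simulated noise was independent between arrays, without the shared deviations of replicate pairs. The number of arrays limits the precision, and scaling removes a rise or fall common to all transcripts.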

Additional observations from a re-analysis of the deposited data

Results flagged for a closer look

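In 11 of 180 groups of 4 arrays (6.11%) a member's highest or lowest array stood apart from the other arrays of its group by Dixon's criterion, beside 7.33% over all genes tested. Chance alone gives about 1 in 20.

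Of these, 6 fell on sef1Δ YPGly replicate 2, each below its group: ALD4 at 3.46 (others 5.03 to 5.08), MDH3 at 2.24 (others 3.12 to 3.19), AMS1 at 1.64 (others 1.87 to 1.91), FMP45 at 2.27 (others 2.72 to 2.79), YAT2 at 0.31 (others 1.00 to 1.08) and SAKL0G04422g at 1.83 (others 2.309 to 2.402). On sef1Δ YPD replicate 4, SAKL0A05654g (IMA1) was high at -1.28 (others -2.05 to -1.94) and SAKL0E12166g at -3.17 (others -3.82 to -3.74). ICL2 was high on WT YPGly replicate 4 at 2.97 (others 1.11 to 1.29). HMX1 was low on WT YPGly replicate 1 at -0.75 (others 0.08 to 0.21). YDL057W was high on sef1Δ YPD replicate 2 at -1.02 (others -2.12 to -1.96).

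The strains' changes with the medium differed by the test of the difference itself for 4 members, with sef1Δ minus WT at -4.07 for SAKL0A05654g, -2.57 for SAKL0F16324g, -1.20 for SAKL0H11726g (YDR248C) and 1.32 for SAKL0E12166g. On the separate slides, the difference was -3.79 and -4.34 for SAKL0A05654g, -2.19 and -2.94 for SAKL0F16324g, -1.21 and -1.19 for YDR248C, and 1.35 and 1.29 for SAKL0E12166g. The slides hold the same arrays that gave these calls, with 2 arrays of each group per slide, so their values are no separate test.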

How the results depend on the processing

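No member was called in YPD under any alternative other than the methods' uncorrected t-test, with 1 higher. In YPGly the count lower (2) became 6 with the replicate block, 5 with array weights and 6 with the methods' t-test, and 2 to 4 without single arrays. SAKL0A05698g was also called lower with the other probe (limma, adjusted p = 0.0255) and with the mean of both probes (limma, adjusted p = 0.0472). The count higher (1) became 2 under quantile normalization, normexp background, the slide as a block and members from 2.4 to 4.2, 4 with the replicate block, 13 with array weights, 7 with the methods' t-test and 0 after its adjustment, and 1 to 3 without single arrays. For the difference of the changes, the count lower (3) stayed at 2 to 3. The count higher (1) became 0 under quantile normalization, median centring, spike-in scaling, no filter on dim probes, the other probe, the mean of both probes and members from 2.8 to 3.8. It became 2 with array weights and with the replicate block within each medium, and 0 to 1 without single arrays or without YPD replicate 2 of both strains (chosen after seeing the data). The cause was not tested. Shares over all genes are given above for the main fit and the replicate blocks only, so the other counts cannot be set against all genes tested.

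Spike-in scaling moved the median change of the members in WT from 3.12 to 3.79 and the list genes that fell in WT from 56 to 22. SAKL0A05654g and SAKL0F16324g kept their calls in YPGly under all 23 alternatives and after adjustment of the methods' t-test. HSP26 lost its call in the single fit of all 16 arrays (limma, adjusted p = 0.348) and after adjustment of the methods' t-test (adjusted p = 0.0502). In that single fit SAKL0E12166g was called higher in its place (1.06, limma, adjusted p = 0.00738), so the count higher did not change.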
